A study of Mus musculus with 12 samples.

Results

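The constitutive proteasome subunit genes are the genes of the mouse proteasome that are used by cells in general, as opposed to those of its immune variant. They were chosen by name, as the genes whose single annotated symbol starts with Psma, Psmb, Psmc or Psmd followed by a digit, without Psmb8, Psmb9, Psmb10 and Psmb11. This gave 35 of the 8251 genes on the array. The members are 7 Psma genes, 7 Psmb genes, 7 Psmc genes and 14 Psmd genes. One of the 35, Psmc3ip, meets the naming rule but encodes a partner of meiotic recombination proteins and not a proteasome subunit, and it is kept apart below.

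RNA was measured on Affymetrix 3'-end arrays from cell suspensions of the thymus of mice on the C57Bl/6 background. By the labels, 8 arrays hold leukemic cells of terminally ill TEL-JAK2 mice and 4 arrays hold thymocytes of wild-type mice aged 2 months. TEL-JAK2 is a fusion protein in which a stretch of TEL, the product of Etv6, drives the kinase domain of Jak2. The labels give neither the promoter that drives the fusion nor the age of the TEL-JAK2 mice, and apart from numbers in the titles they do not say that each array is another animal. The p-values therefore cover only the spread among these arrays, which may be technical.

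The proteasome is the large protease that degrades proteins tagged with ubiquitin. Its core particle is a stack of rings built from alpha subunits (Psma genes) on the outside and beta subunits (Psmb genes) on the inside, and the proteolytic sites lie on the beta subunits encoded by Psmb5, Psmb6 and Psmb7. The regulatory particle caps the core, with a base that holds a ring of ATPases (Psmc genes) which unfold substrates, and a lid (Psmd genes) that removes ubiquitin. In lymphoid cells and under interferon, Psmb8, Psmb9 and Psmb10 take the places of Psmb5, Psmb6 and Psmb7 in newly assembled cores, which are then called immunoproteasomes, and this changes the peptides made for MHC class I molecules.

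The bZIP transcription factors Nfe2l1 and Nfe2l2 are known to act on proteasome genes through the antioxidant response element, searched here as TGACNNNGC on both strands. RefSeq promoters of the build GRCm38.p6, from 250 bases before to 50 bases after the start, were at hand for 29 members. Of these, 5 held the element (17.2%), against 12.4% of all 32851 promoters of the same length. Members were counted by gene (with 31 promoters) and the background by promoter, so the shares are not of the same kind. The stretches around the 5 matches are shown because they include the promoters of 2 catalytic subunits, and the capitals mark the match, which on the antisense strand reads as the reverse complement. All are printed 5′ to 3′ on the strand of the gene.
Psmb5, chr14:54618014-54618062, minus strand: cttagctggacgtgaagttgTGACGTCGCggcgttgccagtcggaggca
Psmb6, chr11:70525328-70525356, plus strand: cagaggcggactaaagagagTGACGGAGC
Psmd9, chr5:123228139-123228187, plus strand: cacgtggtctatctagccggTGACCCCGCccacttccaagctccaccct
Psmc6, chr14:45329577-45329625, plus strand, antisense match: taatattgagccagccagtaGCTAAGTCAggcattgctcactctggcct
Psmd12, chr11:107479278-107479309, plus strand, antisense match: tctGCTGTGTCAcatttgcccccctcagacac

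The matches in Psmb6, Psmd9 and Psmb5 begin 9, 31 and 47 bases before the start, and those in Psmc6 and Psmd12 begin 227 and 247 bases before it. A match is a description of these letters and not a binding site.

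The CCAAT box, a letter pattern bound by the factor NF-Y, stood in the promoters of 12 of the 29 members (41.4%), against 37.4% of all promoters. Members were again counted by gene and the background by promoter. The 250 bases before the start are shown for the members that changed in leukemia and had a promoter in the table, the core subunit gene Psmb4 and the ATPase gene Psmc1. Capitals mark the single CCAAT of Psmc1, and Psmb4 has no such letters in this window. Promoters of Psmb1, Psmb2, Psmb7, Psmc3, Psmd3 and Psmd7 were not analysed here.
Psmb4, chr3:94886959-94887208, minus strand: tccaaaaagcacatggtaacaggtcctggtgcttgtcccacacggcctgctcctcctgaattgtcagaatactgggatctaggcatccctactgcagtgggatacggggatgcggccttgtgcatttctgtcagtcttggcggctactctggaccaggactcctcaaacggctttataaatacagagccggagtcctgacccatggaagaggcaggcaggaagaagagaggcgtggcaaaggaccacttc
Psmc1, chr12:100109952-100110201, plus strand: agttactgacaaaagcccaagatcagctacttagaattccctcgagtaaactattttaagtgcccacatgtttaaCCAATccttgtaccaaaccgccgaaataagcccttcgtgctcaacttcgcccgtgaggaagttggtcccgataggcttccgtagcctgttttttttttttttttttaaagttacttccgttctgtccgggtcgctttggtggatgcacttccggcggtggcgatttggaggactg

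Arrays were of like brightness, with median intensities between 66.48 and 70.18. Values below are log2 of the deposited intensity, and since probe sets differ in how they bind, each level is compared with other levels of the same gene only. The control level was the 95th percentile of 19 probe sets against transcripts that mice lack, and on each array 33 or 34 of the 35 members exceeded it. The mean values of Psmc4 and of Psmc3ip were below this level in both groups. Of 11 T-cell markers measured, none was near the control level in both groups, Cd2 rose (log2 change 1.38), Cd4 and Cd247 fell (-1.89 and -0.93), and 8 did not pass. Of 8 granulocyte markers 4 fell, namely S100a8 (-1.66), Ngp (-0.95), S100a9 (-0.91) and Camp (-0.49), where 11.9% of all genes fell. The other 4 did not pass, namely Ltf (-0.29), Elane (0.06), Mpo (0.01) and Ly6g (0.12). The means of Mpo and Ly6g were near the control level in both groups, and those of Ngp and S100a9 in leukemia. The sum of all 8 spanned 432 to 572 in leukemias and 645 to 795 in thymocytes. Summed macrophage markers (14 of 15 measured) spanned 1351 to 6541 in leukemias and 1399 to 1879 in thymocytes. None of the 14 passed the test, but all 14 had a positive difference, with a median of 0.39 and the largest for Lyz2 (1.17, adjusted p = 0.067 by limma). The means of Adgre1, Mrc1, Msr1 and Marco were near the control level in both groups. Summed erythroid markers (5 of 8 measured) also varied widely, from 1092 to 6240 in leukemias and from 3337 to 6858 in thymocytes. Summed B-cell markers (9 of 10 measured) spanned 2527 to 3453 in leukemias and 2492 to 2855 in thymocytes. None of these erythroid or B-cell markers passed, and differences of both signs occurred in each list. Of 21 mitosis genes measured, 17 fell in leukemia and 0 rose. The part of these marker differences in the proteasome values was not tested, beyond the covariate fits given at the end. Of those, the fit with the mitosis score can hardly tell the score from the group.

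The comparison of leukemia with thymocytes asked how the RNA level of the proteasome genes differs between the TEL-JAK2 leukemias and normal thymus cells. Most subunit genes had nearly the same level in both groups. The structural beta subunits Psmb1, Psmb4 and Psmb2 rose by 1.27-fold, 1.17-fold and 1.17-fold, while the lid subunit Psmd3 and the ATPase Psmc1 fell, by 0.40 and 0.26 on the log2 scale. No member differed by as much as 1.5-fold, and 31 of the 35 differed by less than 1.2-fold (88.6%), as did 72.8% of all genes.

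In numbers, 3 members rose, 2 fell and 30 did not pass limma's test at an adjusted p under 0.05 over all genes. This is 14.3% of the members, against 17.3% of all genes, so the share is close to the background. Of all genes 5.41% rose and 11.9% fell. The median log2 change of the members was -0.03, and that over all genes was 0.0037. The 95% interval of the log2 change lay within 1.5-fold in either direction for 29 of the 30 members that did not pass, the exception being Psmd12. Psmb2 alone had all leukemias above all thymocyte arrays (4.21% of all genes), and Psmd3 alone had all leukemias below them (8.11% of all genes).

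**Figure D1:**
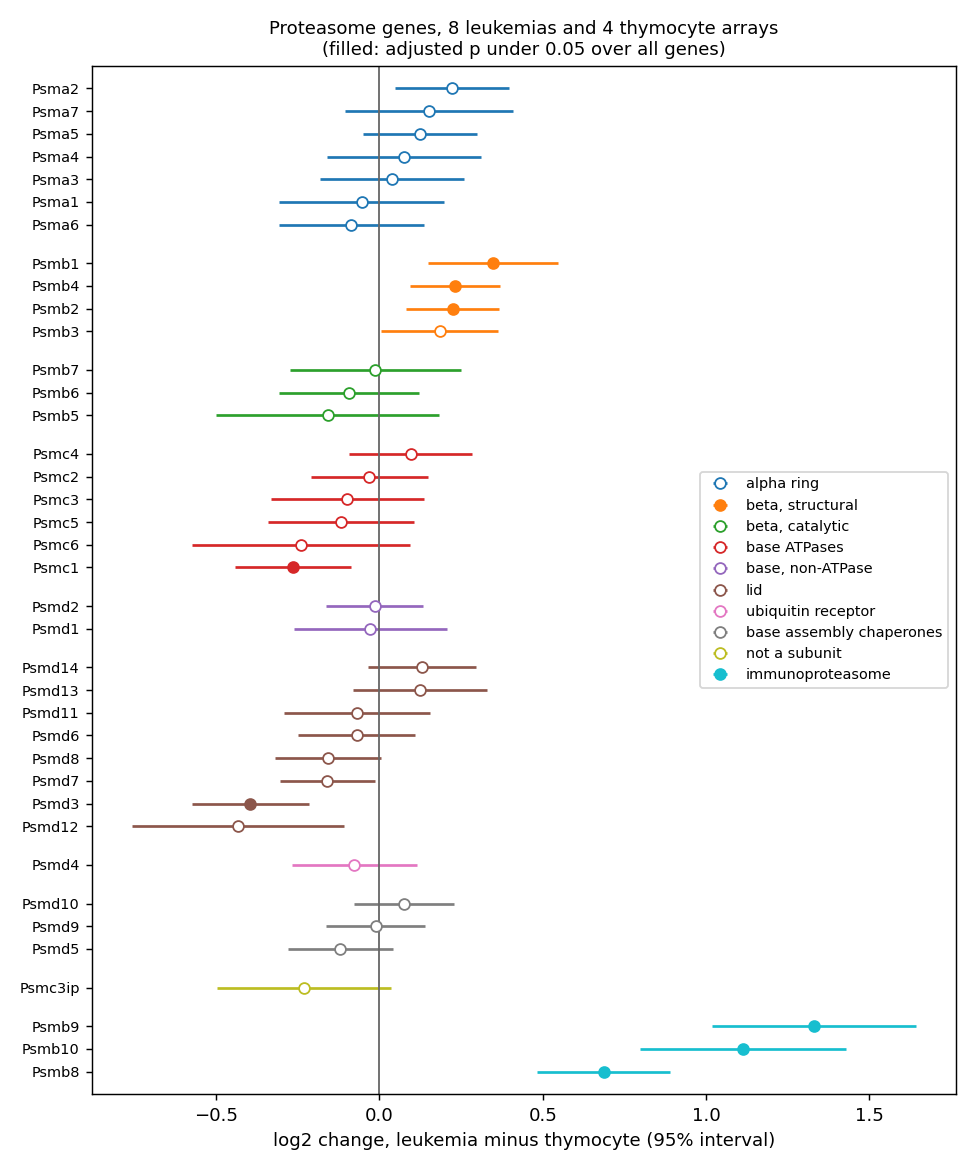
Log2 change of each member between 8 leukemias and 4 thymocyte arrays, leukemia minus thymocyte, with its 95% interval, grouped by role, and below them the 3 immunoproteasome subunit genes. Filled points have an adjusted p under 0.05, which holds for Psmb1, Psmb4, Psmb2, Psmc1 and Psmd3 among the members, all within 1.5-fold, while the immunoproteasome genes lie between 0.69 and 1.33.

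The alpha subunits form the outer rings of the core and its gate. None of the 7 alpha genes passed the test, 5 had a positive and 2 a negative difference, and their log2 changes ranged from -0.09 for Psma6 to 0.22 for Psma2. Psma2 had the largest difference of this group. It lay at 10.27 in the lowest, 10.34 in the median and 10.63 in the highest leukemia, against 10.19, 10.20, 9.96 and 10.29 in the thymocyte arrays. Only the brightest thymocyte array reached into the range of the leukemias. The log2 change of Psma2 was 0.22 (SE 0.08, 95% interval 0.05 to 0.40, adjusted p = 0.0793 by limma). Psma7 was highest in leukemia 3, at 9.06.

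The structural beta subunits Psmb1, Psmb2, Psmb3 and Psmb4 complete the inner rings without carrying a proteolytic site in mammals. Of these 4 genes 3 rose, and Psmb3 did not pass. Their median log2 change was 0.23, the highest of the role groups.

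Psmb1 was at 9.35 in the lowest, 9.53 in the median and 9.72 in the highest leukemia, against 9.20, 9.22, 8.95 and 9.39 in the thymocyte arrays. The thymocyte array at 9.39 lay above the 2 lowest leukemias, so the groups overlapped. The means were 9.54 ± 0.14 (SD, n = 8) in leukemia and 9.19 ± 0.18 (SD, n = 4) in thymocytes, a log2 change of 0.35 (SE 0.09, adjusted p = 0.019 by limma). Of the other probe sets of Psmb1, one gave 0.02 (adjusted p = 0.914 over all probe sets) and one near the control level gave 0.21 (adjusted p = 0.0753 over all probe sets, limma).

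Psmb4 was at 9.70, 9.82 and 9.93 in the lowest, median and highest leukemia, against 9.59, 9.55, 9.48 and 9.71 in the thymocyte arrays. One thymocyte array lay just above the lowest leukemia. The log2 change was 0.23 (SE 0.06, adjusted p = 0.0239 by limma). The name of this probe set marks possible cross-hybridization, and the probe set of Psmb4 without that mark gave 0.14 (adjusted p = 0.282 over all probe sets, limma).

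Psmb2 was at 9.23, 9.38 and 9.48 in the lowest, median and highest leukemia, against 9.18, 9.22, 8.98 and 9.22 in the thymocyte arrays. All leukemias lay above all thymocyte arrays, by a narrow margin. The log2 change was 0.22 (SE 0.07, adjusted p = 0.0328 by limma). Psmb3 was at 10.13, 10.36 and 10.60 in leukemia, against 10.14, 10.21, 10.03 and 10.33 in thymocytes, and its change of 0.18 (SE 0.08) did not pass (adjusted p = 0.161, limma).

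The 3 increases rest in part on thymocyte array 3, which had the lowest value of all 12 arrays for Psmb1, Psmb2, Psmb3 and Psmb4. Without it the log2 changes were 0.27 for Psmb1 (adjusted p = 0.0841), 0.17 for Psmb2 (adjusted p = 0.137) and 0.20 for Psmb4 (adjusted p = 0.0961 by limma). No member passed as higher in that fit. Without thymocyte array 1 none passed as higher either, although the changes were 0.35, 0.23 and 0.23 in the same order. Without thymocyte array 2 the count was 1. Fewer genes passed in general without thymocyte arrays 3, 1 and 2, namely 12.5%, 11.4% and 11.7% of all genes, against 17.3% with all arrays. The median of the core genes, each taken relative to its mean over all arrays, was -0.22 in thymocyte array 3 and between -0.05 and 0.03 in the other thymocyte arrays.

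The catalytic subunits carry the proteolytic sites of the constitutive core, Psmb5 the chymotrypsin-like, Psmb6 the caspase-like and Psmb7 the trypsin-like activity. None of these 3 genes passed the test.

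Psmb5 was at 7.75, 7.99 and 8.57 in the lowest, median and highest leukemia, against 8.35, 8.24, 8.09 and 8.42 in the thymocyte arrays. The leukemias spread to both sides of the thymocytes, with an SD of 0.33 in leukemia and 0.14 in thymocytes. The log2 change was -0.16 (SE 0.16, 95% interval -0.50 to 0.18, adjusted p = 0.567 by limma). The other probe set of Psmb5, not marked for cross-hybridization, gave 0.06 (adjusted p = 0.728 over all probe sets, limma).

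Psmb6 was at 9.01, 9.33 and 9.52 in the lowest, median and highest leukemia, against 9.44, 9.37, 9.22 and 9.61 in the thymocyte arrays. Psmb7 was at 8.02, 8.36 and 8.70 in leukemia, against 8.39, 8.40, 8.18 and 8.61 in thymocytes. For both genes the leukemias covered most of the thymocyte range. The log2 changes were -0.09 for Psmb6 (95% interval -0.31 to 0.12, adjusted p = 0.593) and -0.01 for Psmb7 (95% interval -0.28 to 0.25, adjusted p = 0.962 by limma). The sign of the Psmb5 and Psmb7 differences was not stable over the alternatives run. That of Psmb6 turned only with the mitosis score as a covariate (0.19), in a fit that can hardly tell the score from the group.

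**Figure D2:**
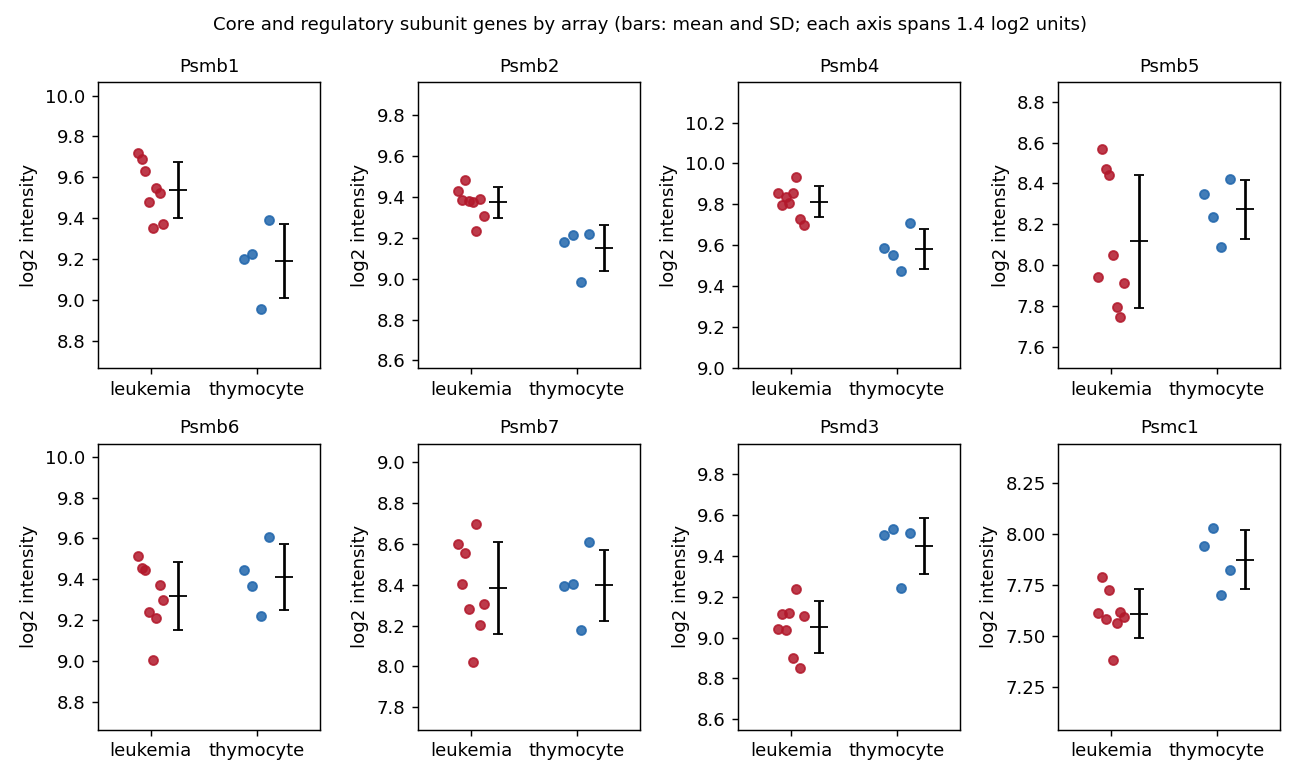
Log2 intensity by array for 3 structural beta genes, the 3 catalytic beta genes, Psmd3 and Psmc1, with leukemias (n = 8) left of thymocytes (n = 4) and bars for the mean and SD. Psmb2 and Psmd3 separate the groups, by a narrow margin, and Psmb5 spreads from 7.75 to 8.57 in leukemia.

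The immunoproteasome subunits, which compete with these 3 for their places, all rose. Psmb9 rose 2.52-fold, Psmb10 2.17-fold and Psmb8 1.61-fold (limma adjusted p = 4.1e-05, 0.000194 and 0.00027), and each was above every thymocyte array in all 8 leukemias. The difference between each immune subunit and its constitutive counterpart was taken within each array, which removes what the 2 probe sets share on that array. Psmb8 minus Psmb5 was 3.07 ± 0.28 (SD, n = 8) in leukemia and 2.23 ± 0.04 (SD, n = 4) in thymocytes, a shift of 0.85. For Psmb9 minus Psmb6 the leukemias had 0.69 ± 0.31 and the thymocytes -0.73 ± 0.07, a shift of 1.42. Psmb10 minus Psmb7 was 1.57 ± 0.41 in leukemia and 0.44 ± 0.16 in thymocytes, a shift of 1.13. Only the shifts can be read, since the levels of different probe sets are not comparable.

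In all 3 pairs every leukemia lay above every thymocyte array. The two-sided exact permutation test gave p = 0.0020 for each, the smallest that 495 assignments of the arrays can give, and 0.0020 after Benjamini-Hochberg adjustment over the 3 pairs. The shifts mostly carry the rises of the immune subunits, which alone already separated the groups. The test therefore adds little about the constitutive genes. With the other probe set of Psmb5 the first shift was 0.63 (adjusted p = 0.0020, exact permutation). In the arrays whose title number has 4 digits it was 0.66 (adjusted p = 0.0571 by exact permutation), and those of Psmb9 minus Psmb6 and Psmb10 minus Psmb7 were 1.46 and 1.13 (adjusted p = 0.0429 each by exact permutation). Every leukemia lay above every thymocyte array there too. So few arrays allow few assignments, which limits how low these p-values can be.

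**Figure D3:**
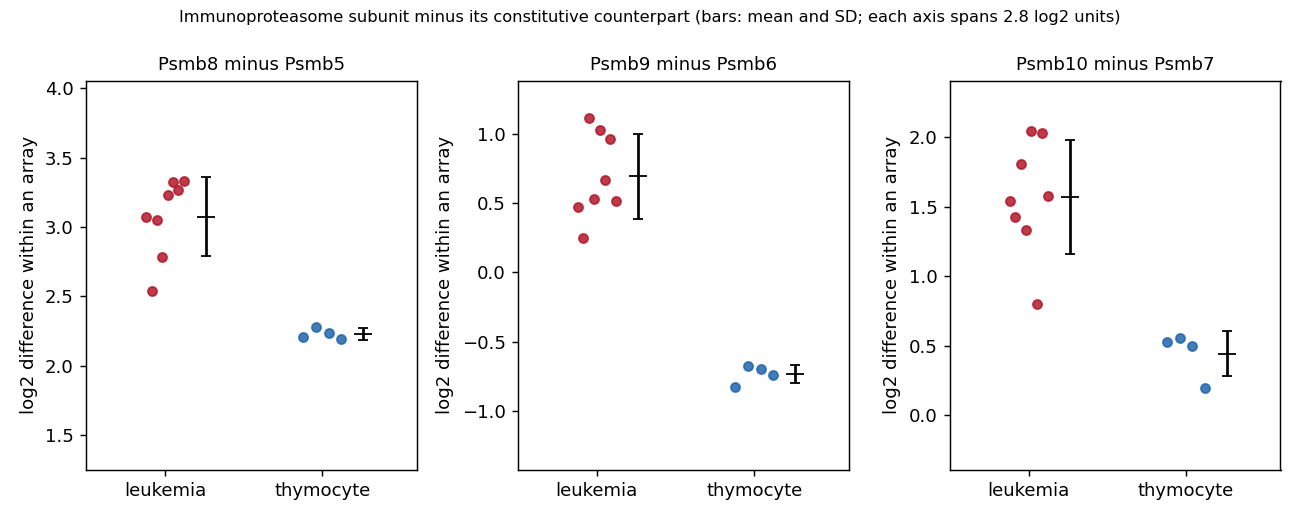
Difference in log2 intensity within each array between an immunoproteasome subunit gene and the constitutive gene it replaces, for leukemias (left, n = 8) and thymocytes (right, n = 4), with bars for the mean and SD. In each panel all 8 leukemias lie above all 4 thymocyte arrays, with shifts of 0.85, 1.42 and 1.13.

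In the regulatory particle, 14 of the 17 subunit genes had a negative and 3 a positive difference. Of these 17 genes 2 fell (11.8%, against 11.9% of all genes) and 0 rose, with a median log2 change of -0.08. The share that fell is thus at the background. Among the 14 core genes 3 rose (21.4%, against 5.41% of all genes) and 0 fell, with a median of 0.10. None of these 3 passed the test without thymocyte array 1 or without thymocyte array 3. In those fits 11.4% and 12.5% of all genes passed, against 17.3% with all arrays. The difference between the medians of the core and of the regulatory particle was not tested.

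The base ATPases, the motor of the particle, had log2 changes from -0.26 to 0.10 and a median of -0.11. Psmc1 was at 7.38, 7.60 and 7.79 in the lowest, median and highest leukemia, against 7.94, 8.03, 7.70 and 7.82 in the thymocyte arrays. Thymocyte array 3 reached into the leukemia range, and the other 3 lay above it. The change was -0.26 (SE 0.08, adjusted p = 0.0403 by limma), and this call is close to the threshold. It was lost without any 1 of 9 of the 12 arrays, where the adjusted p was up to 0.164, with quantile normalization (adjusted p = 0.127) and with each array centred on its median (adjusted p = 0.0525, limma). The other 5 ATPase genes did not pass, and Psmc4 was near the control level in both groups.

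The lid holds the deubiquitinase Psmd14 and its scaffold. Psmd3, a scaffold subunit of the lid, was at 8.85, 9.07 and 9.24 in the lowest, median and highest leukemia, against 9.5, 9.53, 9.24 and 9.51 in the thymocyte arrays. All leukemias lay below all thymocyte arrays, with thymocyte array 3 only just above the highest leukemia. The means were 9.05 ± 0.13 (SD, n = 8) in leukemia and 9.45 ± 0.14 (SD, n = 4) in thymocytes, a log2 change of -0.40 (SE 0.08, 95% interval -0.57 to -0.22, adjusted p = 0.00458 by limma). It was the only member past an adjusted p under 0.01, and it passed 0.05 in all 12 fits that left out 1 array (log2 changes from -0.46 to -0.37). With the mitosis score as a covariate its change was -0.25 (adjusted p = 0.198, limma), in a fit that can hardly tell the score from the group.

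Psmd12, another scaffold subunit of the lid, had the largest difference of all members. It was at 6.12, 6.48 and 6.90 in the lowest, median and highest leukemia, against 7.14, 7.08, 6.90 and 6.68 in the thymocyte arrays. The groups overlapped, and its change of -0.43 (SE 0.15, 95% interval -0.76 to -0.11) did not pass (adjusted p = 0.0665, limma). Its probe set is marked for possible cross-hybridization. Of the other 6 lid genes none passed, with changes from -0.16 for Psmd7 to 0.13 for Psmd14.

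The large base subunits Psmd1 and Psmd2 and the ubiquitin receptor Psmd4 had changes from -0.08 to -0.01, and none passed. The largest was that of Psmd4, which was at 9.45, 9.72 and 9.93 in the lowest, median and highest leukemia, against 9.82, 9.83, 9.72 and 9.81 in thymocytes (log2 change -0.08, SE 0.09, adjusted p = 0.627 by limma). The thymocyte values lay inside the leukemia range. Psmd5, Psmd9 and Psmd10 encode chaperones that help to assemble the base and leave the finished particle. None of them passed, with changes from -0.12 for Psmd5 to 0.07 for Psmd10. Psmd5 was at 8.41, 8.63 and 8.78 in leukemia, against 8.75, 8.79, 8.66 and 8.68 in thymocytes (adjusted p = 0.33, limma). Psmc3ip, the member that is no subunit, had a change of -0.23 near the control level (adjusted p = 0.248, limma), and without it the counts of members that rose or fell were the same and the median was -0.03.

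**Figure D4:**
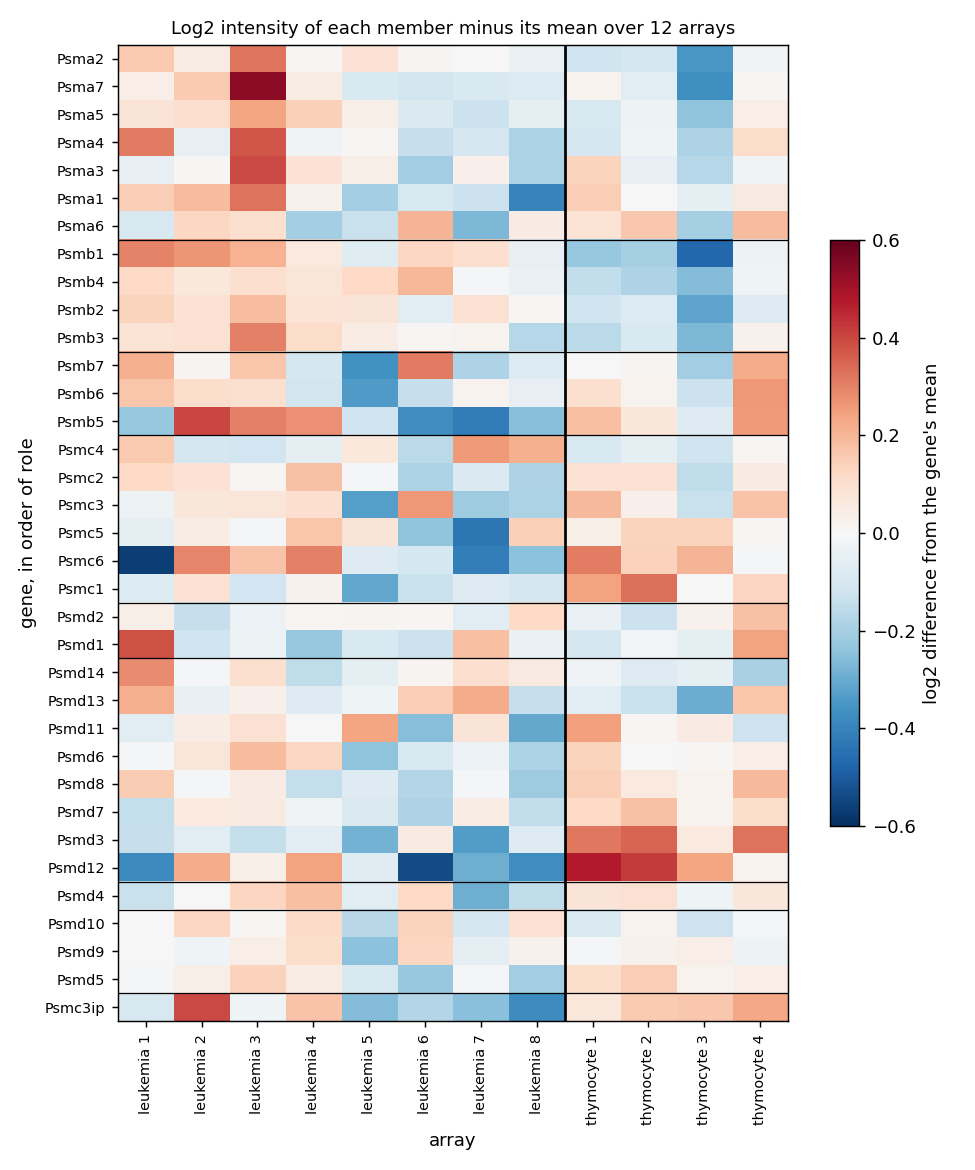
Log2 intensity of each of the 35 members minus its mean over the 12 arrays (colour), in order of role down the page, with leukemias 1 to 8 left of the line and thymocyte arrays 1 to 4 right of it. The median of the core genes is lowest in thymocyte array 3 (-0.22) and highest in leukemia 3 (0.27), and Psmb5, Psmc6 and Psmd12 have the widest spread among the leukemias.

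The members varied somewhat among the leukemias. Their median SD was 0.15 over the 8 leukemias and 0.12 over the 4 thymocyte arrays, against 0.17 and 0.11 for all genes. Relative to each gene's mean over all arrays, the median member was highest in leukemia 3 (0.10) and lowest in leukemia 8 (-0.10), and it ranged from -0.08 to 0.06 in thymocytes. The widest spread in leukemia was that of Psmb5 (SD 0.33), Psmc6 (SD 0.32) and Psmd12 (SD 0.29).

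These 3 genes, picked for that spread, were compared between leukemias by the kind of number in the array's title, and Psmb5 and Psmd12 passed the test. Picking genes by their spread over these leukemias favours a difference between kinds of them, so the p-values here are descriptive only. The probe sets of Psmb5 and Psmd12 are marked for possible cross-hybridization. The titles of leukemias 2, 3, 4 and 5 carry a number of 4 digits, and those of leukemias 1, 6, 7 and 8 do not. The labels do not say what the number stands for. Psmb5 averaged 7.85 ± 0.09 without and 8.38 ± 0.23 with such a number (SD, n = 4 each), a log2 difference of -0.53 (SE 0.12, adjusted p = 0.0373 by limma over all genes). Psmd12 averaged 6.26 ± 0.10 without and 6.76 ± 0.15 with it, a difference of -0.50 (SE 0.09, adjusted p = 0.0289 by limma). Psmc6 averaged 9.17 ± 0.20 without and 9.67 ± 0.18 with it, and its difference of -0.50 (SE 0.12) did not pass (adjusted p = 0.0505, limma). For each of the 3 genes the 2 kinds of leukemia did not overlap, where 8.62% of all genes showed no overlap in this direction. The 2 members that passed compare with 5.28% of all genes that passed, so these counts are near the background.

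Of the thymocyte arrays, 3 carry a 4-digit number and 1 does not. In Psmd12 and Psmc6 the thymocyte array without such a number was also the lowest of its group, at 6.68 and 9.49, while in Psmb5 it was the highest, at 8.42. Within the arrays with a 4-digit number (4 leukemias, 3 thymocyte arrays) 4 members rose and 1 fell, where 17.7% of all genes changed. Psmb1 had a log2 change of 0.41 there, and Psmd3 one of -0.38 (adjusted p = 0.0282 and 0.025 by limma). The other arrays (4 leukemias, 1 thymocyte array) gave no member and 0.0485% of all genes past the limma test, but with a single thymocyte array, assumed to vary like the leukemias, this count says nothing about stability. Psmb5 had a change of 0.16 within the arrays with such a number (adjusted p = 0.483, limma), against -0.16 over all arrays. The interaction of group and title number passed for 0 of 35 members and 0% of all genes (lowest adjusted p among members 0.999744 by limma), although that of Psmb5 was -0.73 with an unadjusted p of 0.00525. This interaction rests on the same single thymocyte array. With the kind of title number as a block, 3 members rose and 3 fell, Psmd12 being the added one (log2 change -0.32, adjusted p = 0.0146 by limma). That is 17.1% of the members, against 19.7% of all genes in this fit.

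**Figure D5:**
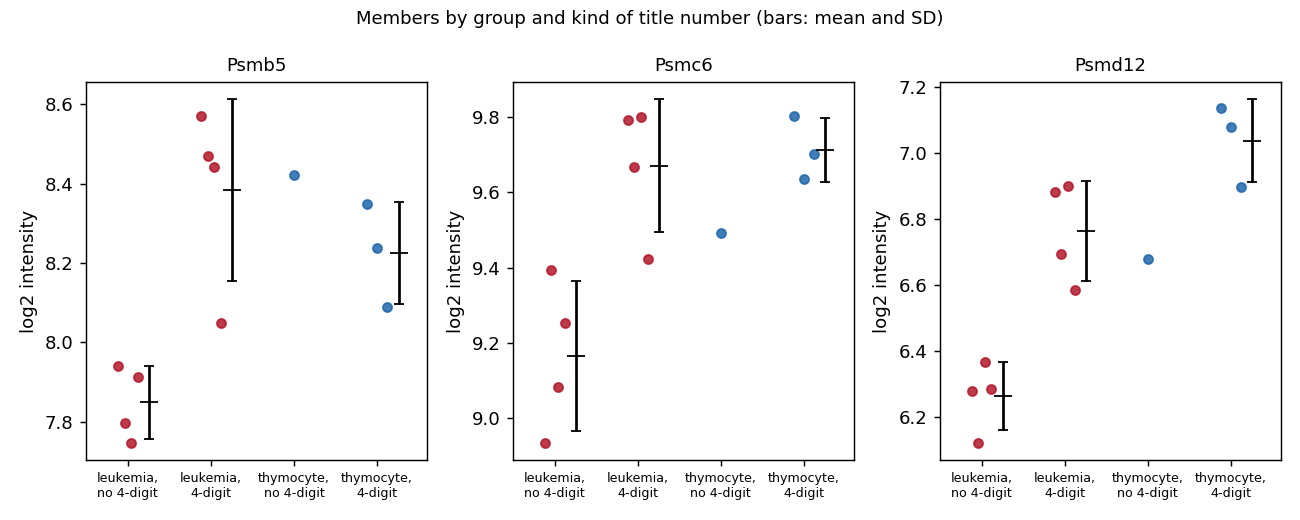
Log2 intensity of Psmb5, Psmc6 and Psmd12 in leukemias without and with a title number of 4 digits (n = 4 each) and in thymocytes without (n = 1) and with (n = 3), with bars for the mean and SD. The leukemias without such a number lie below those with it in each panel, at means of 7.85 against 8.38 for Psmb5.

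Genes that regulate or assist the proteasome moved in both directions. Of 3 proteasome activators measured, Psme1 rose and 2 did not pass. Psme1 encodes a subunit of the interferon-inducible cap PA28. It was at 9.90, 10.25 and 10.71 in the lowest, median and highest leukemia, against 9.66, 9.67, 9.33 and 9.39 in the thymocyte arrays. All leukemias lay above all thymocyte arrays (log2 change 0.76, SE 0.14, adjusted p = 0.00169 by limma). Psme3, of a related nuclear cap, and Psme4, of another cap, had changes of -0.02 and -0.01.

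Of 5 core assembly factors 1 rose. This was Psmg4, a chaperone of alpha ring assembly, which was at 8.70, 8.86 and 9.15 in leukemia, against 8.34, 8.43, 8.40 and 8.41 in thymocytes (log2 change 0.48, SE 0.09, adjusted p = 0.00162 by limma). Every leukemia was above every thymocyte array. The maturation factor Pomp, which is needed for the beta rings to form, had a change of 0.19 and did not pass (adjusted p = 0.112, limma). Psmg1, Psmg2 and Psmg3 had changes of 0.01, -0.12 and 0.20 and did not pass.

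Of 6 proteins associated with the particle 2 fell. Ubr4, a ubiquitin ligase, had a log2 change of -0.32 (SE 0.07, adjusted p = 0.00461), and Uchl5, a deubiquitinase of the regulatory particle, one of -0.35 (SE 0.10, adjusted p = 0.0299 by limma). For both genes all leukemias lay below all thymocyte arrays. With the mean of all its probe sets the change of Ubr4 was -0.15 (adjusted p = 0.133, limma). The call of Uchl5 was lost in 5 of the 12 fits that left out 1 array (leukemia 8 or any of the 4 thymocyte arrays, adjusted p up to 0.0852) and with the macrophage or mitosis score as a covariate (adjusted p = 0.0866 and 0.119 by limma). With the mitosis score, which did not overlap between the groups, neither gene passed. The deubiquitinase gene Usp14 had a difference of 0.01.

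Of 6 genes of the Nfe2l1 axis 2 fell. Nfe2l1, which raises proteasome gene transcription when the protease is inhibited, was at 7.78, 8.0 and 8.12 in the lowest, median and highest leukemia, against 8.53, 8.27, 8.36 and 8.10 in the thymocyte arrays. One thymocyte array lay inside the leukemia range. The change was -0.32 (SE 0.08, adjusted p = 0.0176 by limma). Nfe2l2, the regulator of the oxidative stress response, was at 6.80, 7.15 and 7.31 in leukemia, against 7.62, 7.38, 7.55 and 7.34 in thymocytes, with all leukemias below all thymocyte arrays (log2 change -0.35, SE 0.10, adjusted p = 0.0255 by limma). Both calls were lost without thymocyte array 1 (adjusted p = 0.0844 for Nfe2l1 and 0.106 for Nfe2l2) and without thymocyte array 3 (0.0599 and 0.0829 by limma), where none of the 6 genes fell. The call of Nfe2l1 was also lost with the mean of all its probe sets (log2 change -0.16, adjusted p = 0.0785), and that of Nfe2l2 in the arrays with a 4-digit title number (-0.26, adjusted p = 0.0503 by limma). The members whose promoters hold the response element had changes of -0.16 (Psmb5), -0.09 (Psmb6), -0.24 (Psmc6), -0.43 (Psmd12) and -0.01 (Psmd9), and none passed. Of all 35 members 22 had a negative difference, and the other probe set of Psmb5 gave 0.06. Promoters were searched for 29 members only. A link between these changes and those of Nfe2l1 or Nfe2l2 was not tested. Of 5 ubiquitin shuttle and p97 genes 1 fell, Ubqln2 (log2 change -0.62, adjusted p = 0.032 by limma), at values near the control level in both groups. Its call was lost without leukemia 7 or thymocyte array 1, 2 or 3 (adjusted p up to 0.121), and with 1 array left out 0 to 2 genes of this list fell.

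The score of mitosis genes was -0.90 to 0.16 in leukemias and 0.38 to 0.84 in thymocytes, so the groups did not overlap in it. It was entered as a covariate, but this fit can hardly tell the group from the score. The changes and calls of this fit are therefore given as a description only. In that fit Psmb1 rose (log2 change 0.62, adjusted p = 0.00709) and Psmd12 fell (-0.78, adjusted p = 0.0361 by limma), which had not passed without the covariate. The calls of Psmb2, Psmb4, Psmc1 and Psmd3 were lost there (adjusted p = 0.172, 0.061, 0.448 and 0.198 by limma), and the median of the members was 0.10. Of the members 5.71% passed there, against 14.8% of all genes. The score of macrophage markers was -0.46 to 1.08 in leukemias and -0.46 to -0.15 in thymocytes. With that score as a covariate 2 members rose and 1 fell, and Psmd3 had a change of -0.31 (adjusted p = 0.0191 by limma). These calls are 8.57% of the members, against 13.5% of all genes in this fit. In bulk samples, fewer cells of a type and less RNA per cell cannot be told apart. The log2 ratio of the 3' to the 5' control probe set of beta-actin, a sign of RNA integrity, was 0.39 to 0.54 in leukemias and 0.36 to 0.59 in thymocytes. With this ratio as a covariate 3 members rose and 2 fell, which is 14.3% of the members, against 18.1% of all genes.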

How the data were processed

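The authors deposited 1 linear intensity per probe set and array. RMA is the method named in the submitters' processing notes, without a version. The table held 12488 probe sets, of which 66 Affymetrix controls were left out. A single gene was annotated for 10833 probe sets. For each of the 8251 genes the probe set of highest mean log2 over the 12 arrays was used. The deposited intensities were converted to log2 with no offset. Groups were compared two-sided with lmFit and eBayes of limma 3.58.1 under R 4.3.3, without covariates and with Benjamini-Hochberg adjustment over all genes, after a check on simulated data. The differences between paired subunits were tested with an exact permutation of the arrays. Promoters come from RefSeq.

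The members, lists, tests and alternatives were chosen with earlier results of these data known. Named are the members past the threshold, the catalytic subunits, the largest difference in each role group, and the list genes past the threshold. Psmb3, Psmc6, Psma7 and the list genes that did not pass were added once the values were known. Alternatives added at that stage were the actin ratio as a covariate, the arrays and leukemias split by title number, the interaction and the other Psmb5 probe set. The number of arrays limits the precision.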

Additional observations from a re-analysis of the deposited data

Results flagged for a closer look

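In 4 of the 70 sets of values (35 members in 2 groups) 1 array lay far from the others of its group, where chance gives about 1 in 20. Psma7 was at 9.063 in leukemia 3, against 8.681 in the next highest leukemia. Thymocyte array 3 was the low one in the other 3 cases, at 8.982 for Psmb2 (next 9.18), at 8.308 for Psmc2 (next 8.509) and at 9.243 for Psmd3 (next 9.5).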

How the results depend on the processing

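The count of all genes changed was 1429. It was 2636 with array weights, 816 at an adjusted p under 0.01, 4 in the arrays without a 4-digit title number and 938 to 1618 when 1 array was left out. With array weights 25.7% of the members passed, against 31.9% of all genes. The count of members higher was 3. It was 5 with array weights, 0 at an adjusted p under 0.01, 1 with the mitosis score as a covariate, 1 by the exact rank-sum test, 0 in the arrays without a 4-digit title number and 0 to 3 when 1 array was left out. The count of members lower was 2. It was 4 with array weights, 0 in the arrays without a 4-digit title number, 1 to 4 when 1 array was left out, and 1 with quantile normalization, with median centring, at an adjusted p under 0.01, in the arrays with a 4-digit title number, with the macrophage or mitosis score as a covariate and by the exact rank-sum test. The shift of Psmb8 minus Psmb5 was 0.66 in the arrays with a 4-digit title number and did not pass there (adjusted p = 0.0571 by exact permutation). Every leukemia still lay above every thymocyte array in that set, in a test with few assignments. Signs turned for genes that did not pass. Psmb5 was at 0.0091 with array weights, 0.0573 without cross-hybridizing probe sets and 0.16 in the arrays with a 4-digit number. Psmb6 was at 0.19 with the mitosis score. Psmb7 was at 0.0371 with quantile normalization, 0.00625 with array weights, 0.0808 with the macrophage score, 0.42 with the mitosis score and -0.0853 to 0.0578 when 1 array was left out (0.0013, 0.04, 0.01 and 0.0578 without leukemias 4, 5 and 7 and thymocyte array 4). Psmd4 was at 0.0179 in the arrays with a 4-digit number. The cause of these changes was not tested. The arrays without a 4-digit title number hold 1 thymocyte array, so the low counts there say nothing about stability. No paired analysis was possible because the labels give no replicate numbers shared between the groups.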
